A study of Homo sapiens with 8 samples.

Results

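The comparison described here set 92.1 cells given trametinib and panobinostat together against 92.1 cells given vehicle. It used 4 of the 8 libraries of the series, 2 per group, chosen by their treatment labels. The cells are an established human uveal melanoma line, so all results come from 1 line. Vehicle was DMSO, and exposure lasted 24 h. The label of the combination gives 10 nM once for both drugs, so a dose of 10 nM of each drug is an assumption. The other 4 libraries, 2 with 10 nM trametinib and 2 with 10 nM panobinostat, were used to show where the combination differed from a single drug. The labels of the panobinostat and combination libraries add the note MEKi, short for MEK inhibitor, after the drug names, and the drug names were followed here. Of 11 melanocytic markers, 10 were in the table, and their summed level was 106380 to 114210 in vehicle and 143920 to 145060 in the combination. Both groups therefore carried the melanocytic transcripts of the labelled cell type, with SOX10, the lineage transcription factor, at 10554 and 10220.0 in vehicle and 20061 and 19340.0 in the combination. Sums over the markers of other cell types found in the table were given the same way. The 6 glia markers summed to 2778 to 2784 in vehicle and 4538 to 4944 in the combination. The 4 macrophage markers summed to 669 to 699 and 946 to 1036, mostly the lysosomal glycoprotein CD68, and ITGAM was at 0 in all 8 libraries. The 7 endothelial markers summed to 450 to 495 and 408 to 438, and CDH5 was at 0 in all 8. Epithelial markers summed to 23.8 to 24.1 and 62.05 to 132, lymphocyte markers to 19.8 to 25.3 and 35.0 to 50.3, and red blood cell markers to at most 2.38. Fibroblast and neuron markers are given with the lists they touch. The part of these markers in the results was not tested.

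Uveal melanoma arises from melanocytes of the eye and usually carries an activating mutation in a G alpha q family subunit, which drives the RAF, MEK and ERK kinase cascade through protein kinase C. Trametinib blocks MEK, the kinase that activates ERK, and transcripts that need active ERK, such as those of the Sprouty and DUSP feedback inhibitors, fall when it is blocked. Panobinostat inhibits histone deacetylases, the enzymes that remove acetyl groups from histones, and such inhibitors raise and lower many transcripts.

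A value in the text is the deposited normalised count, a read count divided by a factor for library size. Whole reads could be recovered from the values, and they totalled 16861001 and 12808244 in vehicle against 9017593 and 6897784 in the combination. Replicates correlated over the 13320 tested genes at r = 0.991 in vehicle, 0.974 in the combination, 0.982 with panobinostat and 0.897 with trametinib. The trametinib libraries stood apart at low levels, with 3743 and 5362 genes at 0 against 2222 to 2890 in the other 6. A single transcript, the long noncoding RNA MALAT1, took 4.19% and 4.23% of reads in vehicle and 11.9% and 12.2% in the combination. Vehicle and combination libraries also carry different source labels, and only the vehicle and trametinib libraries list a genome build. A difference in handling between these 2 label sets cannot be told apart from the drugs' effect. The same limit holds for the combination against trametinib, since trametinib libraries list a build as vehicle libraries do and combination libraries do not. Combination and panobinostat libraries share a label set. No source says that replicates were separate cultures, and the p-values reflect how far these libraries scatter, a scatter that may be technical.

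The combination changed many genes, and rises and falls were about equally common. Tests used limma on log2(value + 1), and the threshold was an adjusted p (Benjamini-Hochberg) under 0.05. Each log2 change is given with its standard error after the ± sign, from 2 libraries per group. Of the 13320 genes tested, 3259 rose, or 24.5%, and 3403 fell, or 25.5%. These shares are the background for each count of list members against vehicle given below. At least 2-fold rises numbered 1702, or 12.8%, and at least 2-fold falls 1583, or 11.9%. Both combination libraries lay above both vehicle libraries in 43.0% of tested genes and below both in 40.6%, so separation of the libraries alone is common. The median log2 change over all tested genes was 0.03, with quartiles at -0.58 and 0.68. Without the trametinib libraries, which enter only through the pooled estimate of the spread, 4465 genes rose and 4459 fell. The material is bulk RNA, so less RNA per cell and fewer cells of a kind cannot be told apart in any of these changes.

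**Figure D1:**
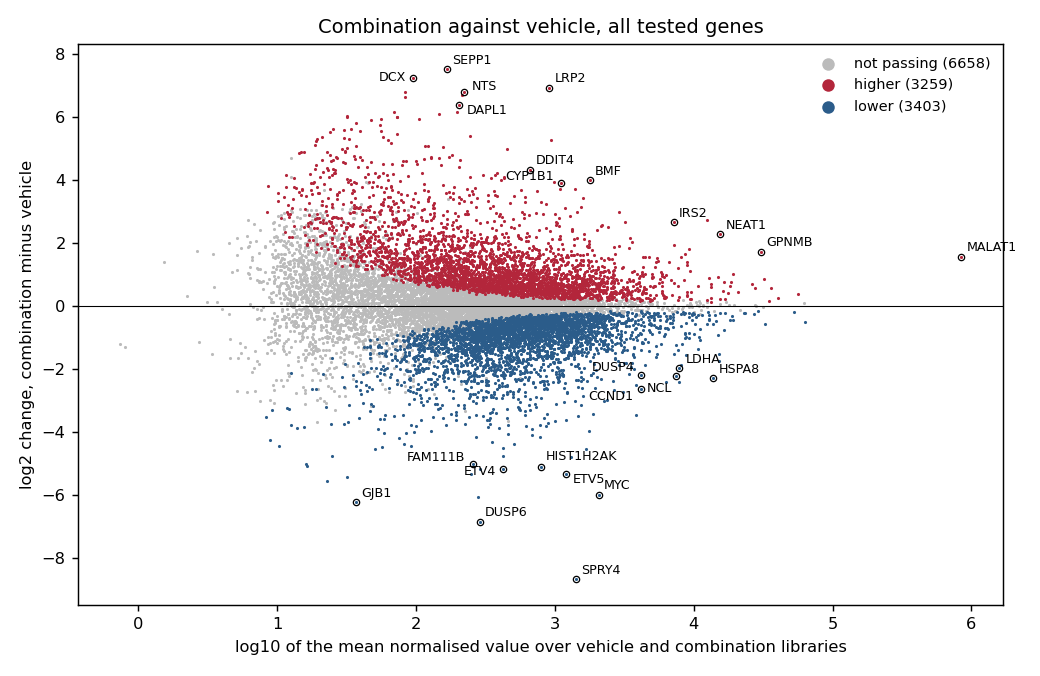
Each point is 1 of the 13320 tested genes, placed by the log10 of its mean normalised value over the 4 libraries (horizontal) and its log2 change in the combination against vehicle (vertical). Red points rose (3259), blue points fell (3403), grey points did not pass, and SPRY4 lies lowest at -8.67.

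The transcripts that rose most came from genes nearly silent in vehicle. SEPP1, which encodes the selenium carrier selenoprotein P, was at 2.41 and 0 in vehicle and 338 and 330.1 in the combination, and DCX, a microtubule protein of migrating neurons, at 0.602 and 0 in vehicle and 207 and 175 in the combination. LRP2, the endocytic receptor megalin, was at 10.8 and 17.4 in vehicle and 1959.8 and 1657 in the combination, 128-fold higher (log2 change 6.93 ± 0.40, adjusted p = 1.07e-06). The combination libraries lay above the vehicle libraries for all 3 genes. NTS, the precursor of the peptide neurotensin, was at 1.81 and 4.75 in vehicle and 461 and 424 in the combination (log2 change 6.79 ± 0.81, adjusted p = 0.000104). DAPL1, a melanocyte-expressed gene related to death-associated protein, was at 6.02 and 2.38 in vehicle and 391 and 418 in the combination (log2 change 6.38 ± 0.45, adjusted p = 3.82e-06). TRPM8, the cold-activated cation channel, rested on 1 read in each vehicle library and stood at 169.8 and 164 in the combination. The other genes among the 12 largest rises were TCN1, a vitamin B12 binding protein, SLC3A1, a subunit of the cystine transporter, the transcription cofactor DACH1, the ephrin receptor EPHA3, the vesicular glutamate transporter SLC17A7 and the ubiquitin ligase HECW2, with log2 changes from 6.02 to 6.80. HECW2 had no read in either vehicle library and was at 60.9 and 66.9 in the combination, at least 30.6-fold above a floor of 3 reads. For genes this low in vehicle, the log2 change depends on the 1 added before the logarithm.

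Among genes averaging 2000 or more in the higher group, the steepest rise was in a cell death gene. BMF, a pro-apoptotic protein that binds BCL2 family members, was at 214 and 207 in vehicle and 3491 and 3202 in the combination, 15.9-fold higher (log2 change 3.98 ± 0.10, adjusted p = 2.45e-08). CYP1B1, a cytochrome P450 that oxidises steroids and aromatic compounds, was at 166 and 115 in vehicle and 2176 and 1952 in the combination (log2 change 3.89 ± 0.30, adjusted p = 6.72e-06). In both genes the lowest combination library was several times the highest vehicle library. CLIP3, a microtubule-binding protein, reached 2677 and 2534 from 221 and 175 in vehicle. SEMA3C, a secreted guidance cue, reached 2078 and 1976 from 166 and 143. ATP1B1, a subunit of the sodium pump, reached 2941 and 2916 from 285 and 261. All 5 of these genes were also higher in the combination than with either drug alone, the smallest of the 10 differences being that of CLIP3 from trametinib (log2 difference 0.49 ± 0.12, adjusted p = 0.0145).

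The largest falls were led by feedback inhibitors and transcription factors of the ERK pathway. SPRY4, a Sprouty protein that restrains receptor signalling to ERK, was at 2838 and 2848 in vehicle and 4.68 and 7.61 in the combination, 463-fold lower (log2 change -8.67 ± 0.44, adjusted p = 5.23e-07). DUSP6, a phosphatase that inactivates ERK, was at 577 and 567 in vehicle and 3.51 and 4.56 in the combination (log2 change -6.84 ± 0.44, adjusted p = 2.29e-06). MYC, the growth-promoting transcription factor, was at 4021 and 4133 in vehicle and 44.5 and 89.8 in the combination, 60.7-fold lower (log2 change -5.99 ± 0.30, adjusted p = 5.23e-07). The vehicle and combination libraries did not come near each other in any of these genes. In the combination SPRY4 and DUSP6 rested on few reads, with 1 read worth 1.17 and 1.52 in the 2 libraries. The 463-fold figure depends on those reads, and both log2 changes also depend on the 1 added before the logarithm. GJB1, the gap junction protein connexin 32, was at 79.4 and 68.9 in vehicle and had no read in the combination, at least 18.4-fold lower against the floor of 3 reads. SH3TC2, an endosomal protein of Schwann cells, was at 554 and 553 in vehicle and 7.02 and 7.61 in the combination, and PDK4, a kinase that inhibits pyruvate dehydrogenase, was at 58.4 and 67.3 in vehicle and 1.17 and 0 in the combination. The histone genes HIST1H2BJ and HIST1H2AK, the replication-linked gene FAM111B and the factors ETV5, SPRY2 and ETV4 completed the 12, with log2 changes from -5.34 to -5.02.

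The transcripts that report ERK activity fell as a group. Of 22 tested ERK pathway output genes, 15 fell and 2 rose, and their median log2 change was -2.35 against 0.03 over all tested genes. SPRY2, another Sprouty inhibitor, was at 515 and 466 in vehicle and 14.05 and 9.13 in the combination (log2 change -5.31 ± 0.54, adjusted p = 3.5e-05). SPRED2, an inhibitor of RAF activation, was at 1569.6 and 1641 in vehicle and 96 and 134 in the combination, 13.97-fold lower. DUSP4, a nuclear phosphatase of ERK, was at 6693 and 7080.1 in vehicle and 1414 and 1617 in the combination (log2 change -2.19 ± 0.09, adjusted p = 1.6e-07), a smaller fall than that of DUSP6 on the log2 scale. All 3 were lower in both combination libraries than in either vehicle library. SPRY1 and SPRED1 fell too, with log2 changes of -2.36 and -1.67, while SPRED3 was at 6.02 and 10.3 in vehicle and 14.05 and 6.09 in the combination and did not pass.

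The ETS factors that ERK induces and the cyclin that links ERK to the cell cycle moved with them. ETV5 was at 2409.8 and 2257 in vehicle and 58.5 and 54.8 in the combination (log2 change -5.34 ± 0.25, adjusted p = 3.37e-07), and ETV4 was at 796 and 865 in vehicle and 17.6 and 27.4 in the combination (log2 change -5.18 ± 0.25, adjusted p = 4.38e-07). ETV1 fell by 2.66 on the log2 scale. CCND1, which encodes cyclin D1, the partner of CDK4 and CDK6, was at 7030.2 and 7329.5 in vehicle and 1191 and 1114 in the combination, 6.23-fold lower (log2 change -2.64 ± 0.10, adjusted p = 1.1e-07). EGR1, an immediate early transcription factor, was at 525 and 556 in vehicle and 71.4 and 125 in the combination (log2 change -2.50 ± 0.36, adjusted p = 0.000351). These genes were high in both vehicle libraries and low in both combination libraries. FOSL1, an AP-1 subunit often used to report ERK output, was at 47.5 and 53.04 in vehicle and 24.6 and 50.2 in the combination and did not pass (adjusted p = 0.727). Its second combination library lay within the vehicle range. EPHA2, an ephrin receptor, was at 338 and 329 in vehicle and 72.6 and 69.98 in the combination. It did not pass (adjusted p = 0.0933) in the fit that pools the spread over all 4 groups, although both combination libraries lay far below both vehicle libraries. LZTS1, a leucine zipper protein, and EPHA4, an ephrin receptor, rose against the trend, with log2 changes of 1.05 and 1.67.

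ERK output was lower in the combination than with panobinostat alone, and for 11 of 22 members higher than with trametinib alone. The comparisons with vehicle and with the single drugs share the combination libraries and are not independent of each other. Against panobinostat, 15 members were lower and 1 higher, where 13.1% of all tested genes were lower and 10.9% higher. With panobinostat alone, SPRY4 stood at 5265 and 5217 and MYC at 5921 and 6139, above the vehicle libraries. Against trametinib, 11 members were higher and 2 lower, beside 17.6% and 15.2% of all genes. CCND1 was at 785 and 632 with trametinib and 1191 and 1114 in the combination (log2 difference 0.71 ± 0.10, adjusted p = 0.000549), and DUSP4 was at 751 and 817 and 1414 and 1617 (log2 difference 0.95 ± 0.09, adjusted p = 5.91e-05). DUSP6 had no read in either trametinib library, and its combination values of 3.51 and 4.56 equal the floor of 3 reads. SPRY2 was at 0 and 2.01 with trametinib and 14.05 and 9.13 in the combination. Both passed as higher, so values near the floor enter the comparison. The trametinib libraries hold few low counts, with 1 to 5 reads in 6.74% and 2.10% of detected genes. In the other libraries that share was 9.93% to 13.3%. ETV5 went the other way, at 126 and 249 with trametinib and 58.5 and 54.8 in the combination (log2 difference -1.63 ± 0.25, adjusted p = 0.0011). The count of 11 fell to 7 without vehicle replicate 1, vehicle replicate 2 or combination replicate 1, to 6 without combination replicate 2, and to 3 in a fit of the trametinib and combination libraries alone.

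**Figure D2:**
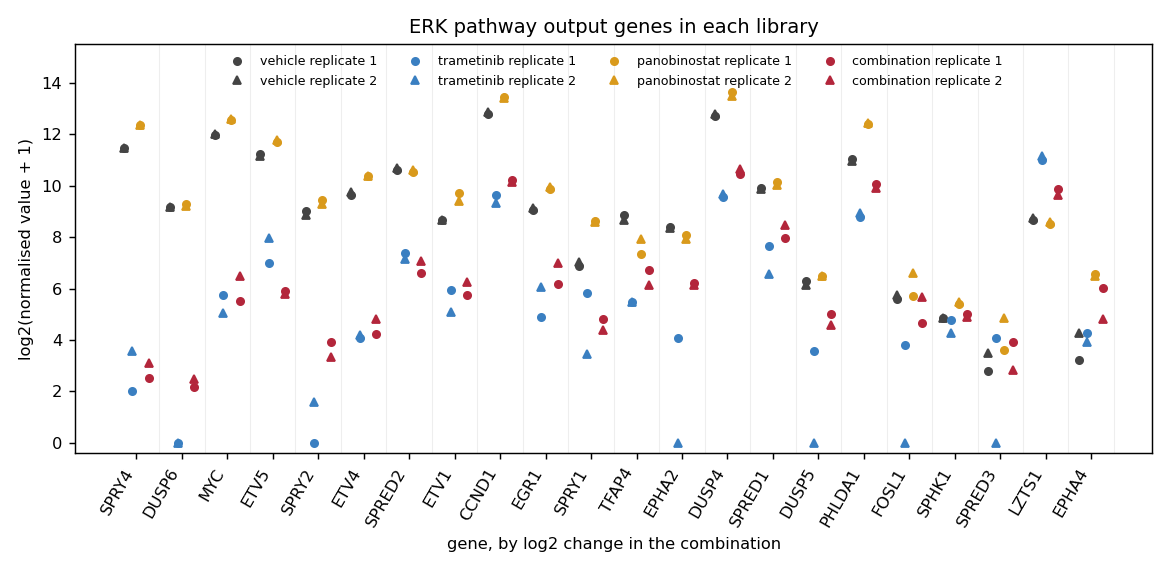
Each point gives log2(normalised value + 1), on the vertical axis, of 1 library for the 22 tested ERK pathway output genes, with groups by colour and replicates by shape. For SPRY4, MYC and ETV4 the trametinib and combination libraries lie far below the vehicle and panobinostat libraries.

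Members of the cascade itself changed less and in both directions. Of 18 tested genes of the RAF, MEK and ERK cascade, 5 rose and 7 fell, beside 24.5% and 25.5% of all tested genes. The median was -0.13. MAP2K1, which encodes MEK1, a direct target of trametinib, was at 219 and 257 in vehicle and 218 and 209.9 in the combination and did not pass (adjusted p = 0.521). MAP2K2, encoding MEK2, was at 2052 and 2428 in vehicle and 1429 and 1766 in the combination (log2 change -0.49 ± 0.13, adjusted p = 0.011), a call that ended without vehicle replicate 2 (adjusted p = 0.105) or without combination replicate 1 (adjusted p = 0.114). KSR1, a scaffold that brings RAF and MEK together, rose to 698 and 543 from 164 and 177 (log2 change 1.84 ± 0.15, adjusted p = 9.41e-06). SOS1, an exchange factor that loads RAS with GTP, fell to 5916 and 5518 from 8318 and 8192, and its relative SOS2 rose to 623 and 666 from 329 and 319.9. Among 17 immediate early and AP-1 factors, 4 rose and 6 fell. JUN, the AP-1 subunit activated by stress kinases, was at 270.2 and 265 in vehicle and 1840.3 and 1911 in the combination, 7.01-fold higher (log2 change 2.80 ± 0.11, adjusted p = 1.62e-07). ATF3, a stress-induced factor, was at 65.6 and 76 in vehicle and 725 and 574 in the combination (log2 change 3.17 ± 0.21, adjusted p = 2.57e-06). JUN and ATF3 were also higher in the combination than with trametinib, by 0.44 and 1.52 on the log2 scale, and than with panobinostat, by 2.44 and 2.95.

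Transcripts of the cell division cycle fell almost throughout. In mitosis genes 32 of 36 fell and none rose, in DNA replication 31 of 33 fell and none rose, and in nucleotide synthesis 23 of 24 fell and none rose. The median log2 changes were -1.96, -2.64 and -1.94. MKI67, the proliferation marker Ki-67, was at 2106 and 1906 in vehicle and 335 and 327 in the combination, 6.06-fold lower (log2 change -2.59 ± 0.12, adjusted p = 4.03e-07). CCNB1, the cyclin that drives entry into mitosis, was at 1558 and 1492 in vehicle and 399 and 345 in the combination (log2 change -2.03 ± 0.14, adjusted p = 2.68e-06). FOXM1, a transcription factor of mitotic genes, was at 3739 and 3438 in vehicle and 702 and 732 in the combination (log2 change -2.32 ± 0.09, adjusted p = 1.12e-07). In each of these genes both combination libraries lay below both vehicle libraries. AURKB, a kinase of the chromosomal passenger complex, fell most on the log2 scale, by 3.15, and KIF20A, a motor protein of cell division, least, by 0.59. The 4 members that did not pass, CENPA, KIF20B, BUB1B and MAD2L1, had log2 changes between -2.30 and -1.78. All 36 members passed as lower without the trametinib libraries and in a fit of the vehicle and combination libraries alone. They also did with array weights and under quantile normalisation, while edgeR gave 35 and DESeq2 32. Fewer than in the main fit passed as lower when any 1 vehicle or combination library was left out.

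Promoters of members of these lists were taken from RefSeq on GRCh38.p14, 250 bases before to 50 after the gene start. Both strands were searched for 3 short motifs of cell cycle genes. They were the CCAAT box CCAAT, the CHR letters TTTGAA or TTCGAA, and 8 E2F words, TTTCGCGC, TTTGGCGC, TTTCCCGC, TTTGCCGC, TTCGCGCC, TTGGCGCC, TTCCCGCC and TTGCCGCC. Of 30 mitosis promoters in the table, 25 held a CCAAT box and 24 a CHR, 83.3% and 80%, beside 35.7% and 16.6% of all 27305 windows. Of 29 DNA replication promoters, 20 held an E2F word, 69.0%, beside 7.57% of all windows, and 1 held a CHR. The motifs were not exclusive to a list. A CCAAT box was in 16 of the 29 replication promoters, 55.2%, and an E2F word in 5 of the 30 mitosis promoters, 16.7%. Of 32 promoters of replication-dependent histones, 27 held a CCAAT box, 16 a CHR and 14 an E2F word. A match is a description of letters and not a binding site. The promoter of MKI67 is printed with CCAAT boxes and CHR in capitals (chr10:128126374-128126673, minus strand). The CHR nearest the start shares 1 base with a CCAAT box. The promoters of MCM3 (chr6:52284693-52284992, minus strand) and CDT1 (chr16:88803539-88803838, plus strand) are printed with only the E2F words in capitals, some of which overlap each other.
MKI67: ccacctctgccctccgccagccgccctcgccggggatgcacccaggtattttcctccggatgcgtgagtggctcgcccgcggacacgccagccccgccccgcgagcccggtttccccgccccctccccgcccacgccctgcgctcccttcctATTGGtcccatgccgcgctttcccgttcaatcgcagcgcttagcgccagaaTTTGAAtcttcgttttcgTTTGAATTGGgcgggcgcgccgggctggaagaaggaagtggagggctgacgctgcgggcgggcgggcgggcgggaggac
MCM3: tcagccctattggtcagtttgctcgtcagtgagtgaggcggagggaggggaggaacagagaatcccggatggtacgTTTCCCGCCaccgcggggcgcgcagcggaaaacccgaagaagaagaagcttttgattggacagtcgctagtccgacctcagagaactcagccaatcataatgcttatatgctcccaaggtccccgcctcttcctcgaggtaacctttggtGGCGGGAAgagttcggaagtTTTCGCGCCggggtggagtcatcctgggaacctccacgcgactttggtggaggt
CDT1: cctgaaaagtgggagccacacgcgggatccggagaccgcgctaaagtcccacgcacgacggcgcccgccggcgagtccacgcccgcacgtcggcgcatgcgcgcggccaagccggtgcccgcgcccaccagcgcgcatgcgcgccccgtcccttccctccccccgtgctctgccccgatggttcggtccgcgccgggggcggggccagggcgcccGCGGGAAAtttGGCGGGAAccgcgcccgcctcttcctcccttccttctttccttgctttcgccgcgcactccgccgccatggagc

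The 2 replication genes with promoters printed above both fell, and whether promoter words relate to the size of a change was not tested. MCM3, a subunit of the replicative helicase, was at 2647 and 2859.6 in vehicle and 317 and 303 in the combination, 8.88-fold lower (log2 change -3.15 ± 0.10, adjusted p = 4.98e-08). CDT1, which loads that helicase onto DNA, was at 1290.4 and 1285 in vehicle and 64.4 and 85.2 in the combination, 17.2-fold lower (log2 change -4.10 ± 0.22, adjusted p = 8.35e-07). CDC45, which activates the helicase, fell most in the list, by 4.74 on the log2 scale, and RPA3, a subunit of the single-strand binding complex, was the tested member nearest to 0, at -0.11. All 6 tested helicase subunits MCM2 to MCM7 fell, with log2 changes from -3.89 in MCM5 to -2.84 in MCM2. RRM2, the ribonucleotide reductase subunit that limits the supply of deoxynucleotides, was at 2401 and 2682 in vehicle and 92.5 and 88.2 in the combination, 28.1-fold lower (log2 change -4.80 ± 0.36, adjusted p = 5.59e-06). CAD, which starts pyrimidine synthesis, and PAICS, an enzyme of purine synthesis, were at 2464 and 2548 in vehicle and 409 and 427 in the combination and at 2690.3 and 2836 in vehicle and 791 and 853 in the combination, in that order. Among 26 homologous recombination and Fanconi genes 21 fell and none rose, with a median of -2.25. EXO1, an exonuclease that resects DNA ends, was at 1433 and 1499 in vehicle and 59.7 and 111 in the combination, and BRCA1 was at 1267 and 1308 in vehicle and 188 and 159.7 in the combination, both lower in each combination library.

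Mitotic transcripts were not as low as with trametinib alone. Of 36 members, 28 were higher in the combination than with trametinib and none lower, with a median difference of 1.64. Of all tested genes 17.6% were higher and 15.2% lower than with trametinib. MKI67 was at 54.2 and 56.3 with trametinib and 335 and 327 in the combination (log2 difference 2.56 ± 0.12, adjusted p = 1.31e-06), and CCNB1 was at 132 and 159 and 399 and 345 (log2 difference 1.35 ± 0.14, adjusted p = 9.61e-05). The trametinib libraries stood apart at low levels, and the count of 28 was 31 without trametinib replicate 1, 32 without trametinib replicate 2 and 17 in a fit of the trametinib and combination libraries alone. DNA replication genes did not show this split, with 4 of 33 higher and 2 lower than with trametinib and a median of 0.22. Against panobinostat, 9 mitosis and 15 replication members were lower and none higher, where 13.1% of all tested genes were lower and 10.9% higher. Those 2 counts were 27 and 29 without trametinib replicate 1, and 28 and 29 without trametinib replicate 2. The mitosis count of 9 also dropped to between 3 and 5 when 1 panobinostat or combination library was left out.

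Histone transcripts fell with DNA replication. Of 22 tested replication-dependent histone genes, 21 fell and none rose, with a median log2 change of -2.83. HIST1H3B, which encodes histone H3.1, was at 3189 and 3424 in vehicle and 251 and 178 in the combination (log2 change -3.96 ± 0.19, adjusted p = 3.8e-07), and HIST1H2BF was at 3726 and 4334 in vehicle and 527 and 479 in the combination (log2 change -3.0 ± 0.13, adjusted p = 1.98e-07). Histone genes with polyadenylated transcripts also fell, 11 of 15, while 2 rose. HIST1H2BK, a member of that class, was at 11019 and 10325 in vehicle and 1968 and 2045 in the combination, 5.32-fold lower (log2 change -2.41 ± 0.07, adjusted p = 2.92e-08), and HIST1H2BJ was at 509.8 and 618 in vehicle and 17.6 and 12.2 in the combination. The 2 that rose were H3F3B, which encodes the replacement histone H3.3, and the linker histone H1FX, at 0.51 and 0.73 on the log2 scale. Histone genes have near-identical copies, so the split of reads among single members is uncertain.

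The machinery that starts the cycle fell and part of the set of CDK inhibitors rose. Among 22 G1 cyclins, CDKs, RB family and E2F genes, 19 fell and 3 rose, with a median of -1.29. E2F1, the activator of S phase genes, was at 698 and 637 in vehicle and 33.95 and 31.9 in the combination, 20.3-fold lower (log2 change -4.30 ± 0.28, adjusted p = 2.57e-06), and CDK4 was at 1882 and 1651 in vehicle and 852 and 869 in the combination (log2 change -1.03 ± 0.10, adjusted p = 2.19e-05). RB1 and RBL2, which restrain E2F, rose by 0.64 and 0.61 on the log2 scale, and so did TFDP2, an E2F partner, by 1.17. Of 8 CDK inhibitors 4 rose and none fell. CDKN1A, the inhibitor p21, was at 2564 and 2601 in vehicle and 5237 and 5223 in the combination, 2.03-fold higher (log2 change 1.02 ± 0.07, adjusted p = 4.79e-06). CDKN1C, the inhibitor p57, was at 10.8 and 3.17 in vehicle and 207 and 271 in the combination (log2 change 5.08 ± 0.53, adjusted p = 4.15e-05). CDKN2B and CDKN2A, which encode the CDK4 and CDK6 inhibitors p15 and p16, rose by 1.78 and 0.83. CDKN1B, the inhibitor p27, was at 443 and 456 in vehicle and 587 and 499 in the combination and did not pass (adjusted p = 0.176), although it did under quantile normalisation, with array weights and in a fit of the vehicle and combination libraries alone (adjusted p from 0.0419 to 0.0461). CDKN1A was higher in the combination than in every library of the single drugs, at 1855 and 2158 with trametinib and 3579 and 3611 with panobinostat.

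Genes for making ribosomes fell. All 25 tested nucleolar ribosome biogenesis genes fell, with a median of -1.86. NCL, which encodes the abundant nucleolar protein nucleolin, was at 12317 and 12235 in vehicle and 2641 and 2606 in the combination, 4.68-fold lower (log2 change -2.23 ± 0.07, adjusted p = 4.98e-08). NPM1, encoding nucleophosmin, was at 13135 and 12290.0 in vehicle and 3402 and 3576 in the combination (log2 change -1.86 ± 0.06, adjusted p = 5.07e-08). NOLC1, a chaperone of small nucleolar ribonucleoproteins, was at 3365 and 3337 in vehicle and 570.1 and 531 in the combination (log2 change -2.60 ± 0.08, adjusted p = 4.98e-08). The vehicle libraries were high and the combination libraries low in each. Against panobinostat alone, 24 of the 25 were lower and none higher, with a median difference of -1.30, beside 13.1% of all tested genes lower. Against trametinib alone 11 were lower and none higher, with a median of -0.36, beside 15.2% of all tested genes lower. That count of 11 was 7 without combination replicate 2 and 5 in a fit of the trametinib and combination libraries alone. NOLC1 was at 2349.8 and 2236 with panobinostat, at 667 and 624 with trametinib and at 570.1 and 531 with both.

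Transcripts for the proteins of the ribosome itself mostly fell, but by little. Of 25 cytosolic ribosomal protein genes 16 fell and 1 rose, with a median of only -0.21. RPS14 fell most, to 2003 and 2032 from 4065 and 3789 (log2 change -0.96 ± 0.10, adjusted p = 3.78e-05). The count of 16 was 9 without vehicle replicate 2, 10 without combination replicate 1 and 7 without combination replicate 2. Among 20 aminoacyl-tRNA synthetases, which charge tRNAs with amino acids, 16 fell and 1 rose, with a median of -0.79. IARS, the isoleucyl-tRNA synthetase, was at 2258 and 2264 in vehicle and 789 and 839.8 in the combination (log2 change -1.47 ± 0.12, adjusted p = 1.18e-05), and VARS, the valine enzyme, at 3065 and 3101 in vehicle and 1263 and 1199 in the combination (log2 change -1.32 ± 0.07, adjusted p = 5.98e-07). QARS, the glutamine enzyme, rose by 0.36 on the log2 scale. Against panobinostat 15 of the 20 were lower, and against trametinib 10 were, a count that was 6 without combination replicate 2. Over all tested genes 13.1% were lower than with panobinostat and 15.2% lower than with trametinib.

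Chaperone transcripts fell, including the most abundant ones. Of 16 heat shock genes 12 fell and 2 rose, with a median of -1.07. HSPA8, the constitutive HSP70 chaperone, was at 23617 and 22467 in vehicle and 4778 and 4626 in the combination, 4.90-fold lower (log2 change -2.29 ± 0.08, adjusted p = 1.1e-07). HSPD1, a mitochondrial chaperonin, was at 5564 and 5691 in vehicle and 1289 and 1228 in the combination (log2 change -2.16 ± 0.07, adjusted p = 8.18e-08), and HSP90AB1 was at 23819 and 22652 in vehicle and 6916 and 7037 in the combination (log2 change -1.74 ± 0.05, adjusted p = 2.92e-08). The small heat shock genes HSPB1 and CRYAB rose, by 1.03 and 1.95 on the log2 scale. HSPA8 was lower than with either drug alone, where it was at 9286 and 11384 with trametinib and 12976 and 13413 with panobinostat. Heat shock genes too have close copies whose reads could have been split. Of 25 proteasome subunits 14 fell and none rose, with a median of -0.45 and PSMB5, the catalytic subunit with chymotrypsin-like activity, at 876 and 816 in vehicle and 427 and 402 in the combination. That count was 9 without vehicle replicate 2 or without combination replicate 2.

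Stress response genes did not share a direction. Of 23 unfolded protein and integrated stress response genes 5 rose and 7 fell, shares near the 24.5% and 25.5% of all tested genes. The median was 0.08. DDIT4, an inhibitor of mTORC1 induced by many stresses, was at 66.2 and 58.6 in vehicle and 1325 and 1216 in the combination, 20.4-fold higher (log2 change 4.33 ± 0.17, adjusted p = 1.41e-07). ATF4, the transcription factor of the integrated stress response, was at 3913 and 3898 in vehicle and 2118 and 2127 in the combination (log2 change -0.88 ± 0.06, adjusted p = 2.7e-06), and XBP1, a factor of the unfolded protein response, at 722 and 669 in vehicle and 174 and 231 in the combination (log2 change -1.79 ± 0.17, adjusted p = 2.19e-05). DDIT4 was higher and the other genes lower in both combination libraries. DDIT4 stood at 331 and 269 with trametinib and 349.7 and 309 with panobinostat, so the combination exceeded each drug alone (log2 difference 2.08 ± 0.17, adjusted p = 2.73e-05 against trametinib, and log2 difference 1.95 ± 0.17, adjusted p = 4.18e-05 against panobinostat).

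Energy metabolism genes fell moderately while those of the lysosome rose. In glycolysis 16 of 21 fell and 1 rose, with a median of -0.57. LDHA, the lactate dehydrogenase subunit that makes lactate, was at 12171 and 12582 in vehicle and 3078 and 3249.5 in the combination, 3.91-fold lower (log2 change -1.97 ± 0.08, adjusted p = 1.86e-07). ENO1, the enolase of most tissues, was at 8212 and 7898 in vehicle and 2601 and 2676 in the combination (log2 change -1.61 ± 0.09, adjusted p = 7.92e-07). Of 28 oxidative phosphorylation genes 14 fell and 3 rose, with a median of -0.36. CYCS, which encodes cytochrome c, was at 3564 and 3901 in vehicle and 1402 and 1441 in the combination. PPARGC1A, a coactivator of mitochondrial gene expression counted in that list, rose to 898 and 895 from 194 and 184 (log2 change 2.24 ± 0.20, adjusted p = 1.4e-05). Among 31 lysosome genes 20 rose and 3 fell, with a median of 0.41. TPP1, a lysosomal peptidase, was at 4207 and 4148 in vehicle and 12085 and 12214 in the combination (log2 change 1.54 ± 0.05, adjusted p = 8.18e-08), and NPC2, a cholesterol carrier of the lysosome, was at 725 and 682 in vehicle and 1840.3 and 1686 in the combination (log2 change 1.32 ± 0.10, adjusted p = 5.57e-06). Autophagy genes rose in 11 of 24 and fell in 3. SQSTM1, the autophagy receptor p62, was at 8734 and 9226 in vehicle and 16229 and 17317 in the combination, and WIPI1, which acts at forming autophagosomes, at 234 and 217 in vehicle and 734 and 622 in the combination.

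Cholesterol synthesis and uptake genes were even in direction against vehicle, 7 rising and 7 falling of 24. These shares were near the 24.5% and 25.5% of all tested genes. FDFT1, the squalene synthase, was at 3790.4 and 3644 in vehicle and 8105 and 7628 in the combination (log2 change 1.08 ± 0.05, adjusted p = 4.91e-07). The list differed from both single drugs in opposite directions. Against trametinib 17 were lower and none higher, beside 15.2% and 17.6% of all tested genes. Against panobinostat 11 were higher and 3 lower, beside 10.9% and 13.1% of all tested genes. The count of 17 was 11 without combination replicate 2, and the 11 higher than with panobinostat were 6 without panobinostat replicate 2. FDFT1 was at 11516 and 11829 with trametinib and 4096 and 4128 with panobinostat, with the combination between them.

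Pigmentation genes split in direction against vehicle, and 19 of 22 were lower than with trametinib alone. Of 22 tested pigmentation enzymes and melanosome proteins, 6 rose and 10 fell against vehicle, with a median of -0.14. Motifs in their promoters, from the same RefSeq windows, included the M-box letters TCATGTG, a word bound by the lineage factor MITF and its relatives. Among 18 pigmentation promoters found there, 6 held it on either strand, 33.3%, beside 2.99% of all 27305 windows. The 3 promoters printed here were chosen because their genes went 3 ways, with the M-box in capitals: GPNMB rose (chr7:23246525-23246824, plus strand), SLC24A5 fell (chr15:48120740-48121039, plus strand) and TYR did not pass (chr11:89177625-89177924, plus strand).
GPNMB: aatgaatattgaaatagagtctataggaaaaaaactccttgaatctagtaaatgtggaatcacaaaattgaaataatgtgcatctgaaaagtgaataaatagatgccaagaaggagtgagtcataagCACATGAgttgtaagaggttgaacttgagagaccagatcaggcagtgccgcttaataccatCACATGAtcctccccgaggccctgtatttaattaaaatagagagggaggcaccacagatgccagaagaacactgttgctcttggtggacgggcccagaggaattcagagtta
SLC24A5: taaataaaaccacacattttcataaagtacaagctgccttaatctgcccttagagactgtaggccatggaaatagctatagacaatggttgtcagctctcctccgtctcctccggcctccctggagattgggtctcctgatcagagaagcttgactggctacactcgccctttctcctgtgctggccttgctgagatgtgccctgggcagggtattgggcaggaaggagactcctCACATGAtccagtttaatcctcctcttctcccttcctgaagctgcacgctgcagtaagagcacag
TYR: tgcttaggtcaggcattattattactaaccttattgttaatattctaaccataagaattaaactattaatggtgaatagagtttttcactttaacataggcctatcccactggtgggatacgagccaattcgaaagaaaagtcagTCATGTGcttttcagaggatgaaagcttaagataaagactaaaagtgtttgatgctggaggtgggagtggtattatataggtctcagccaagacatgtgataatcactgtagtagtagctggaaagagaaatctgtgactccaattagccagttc

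The 3 genes with M-box promoters differed as follows. GPNMB, a melanosomal and lysosomal glycoprotein, was at 14109 and 14440.0 in vehicle and 48749 and 45273 in the combination, 3.29-fold higher (log2 change 1.72 ± 0.06, adjusted p = 7.11e-08). SLC24A5, a cation exchanger that affects skin colour, was at 1692 and 1594 in vehicle and 365 and 406 in the combination, 4.26-fold lower (log2 change -2.09 ± 0.10, adjusted p = 4.78e-07). TYR, the tyrosinase that starts melanin synthesis, was at 1588 and 1534 in vehicle and 1589 and 1413 in the combination, with overlapping groups (log2 change -0.06 ± 0.08, adjusted p = 0.583). DCT, a later enzyme of the same pathway, was at 14.4 and 4.75 in vehicle and 258 and 236 in the combination (log2 change 4.71 ± 0.48, adjusted p = 3.93e-05). SLC45A2, a melanosomal transporter, was at 1588 and 1691 in vehicle and 588 and 612 in the combination (log2 change -1.45 ± 0.10, adjusted p = 3.02e-06). MLANA, the melanoma antigen Melan-A, was lower at 5275 and 5464 in vehicle and 4466 and 4155 in the combination (log2 change -0.32 ± 0.06, adjusted p = 0.0014). PMEL, which forms the fibrils of the melanosome, was at 37252 and 36220.0 in vehicle and 42296 and 45795 in the combination (log2 change 0.26 ± 0.06, adjusted p = 0.00353), and under quantile normalisation its log2 change turned to -0.018 and did not pass.

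Most pigmentation genes were lower than with trametinib, while the list split against panobinostat. Compared with trametinib 19 of 22 were lower and 1 higher, with a median difference of -1.02, beside 15.2% and 17.6% of all tested genes. Compared with panobinostat 9 were higher and 6 lower, with a median of -0.04, beside 10.9% and 13.1% of all tested genes. The count of 19 was 19 and 20 when trametinib replicate 1 and replicate 2 were left out. Under both drugs DCT was at 258 and 236, below 1984 and 1912 with trametinib and above 5.10 and 10.1 with panobinostat (log2 difference -2.98 ± 0.48, adjusted p = 0.00151 against trametinib). TYR was at 2726 and 2972, 1745 and 1789 and 1589 and 1413 in the same order (log2 difference -0.93 ± 0.08, adjusted p = 4.48e-05 against trametinib). SLC45A2 was at 3087 and 2683, 981 and 865 and 588 and 612, lowest in the combination. GPNMB was at 43702 and 47762 with trametinib and did not differ from the combination past the threshold (log2 difference 0.04 ± 0.06, adjusted p = 0.612).

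**Figure D3:**
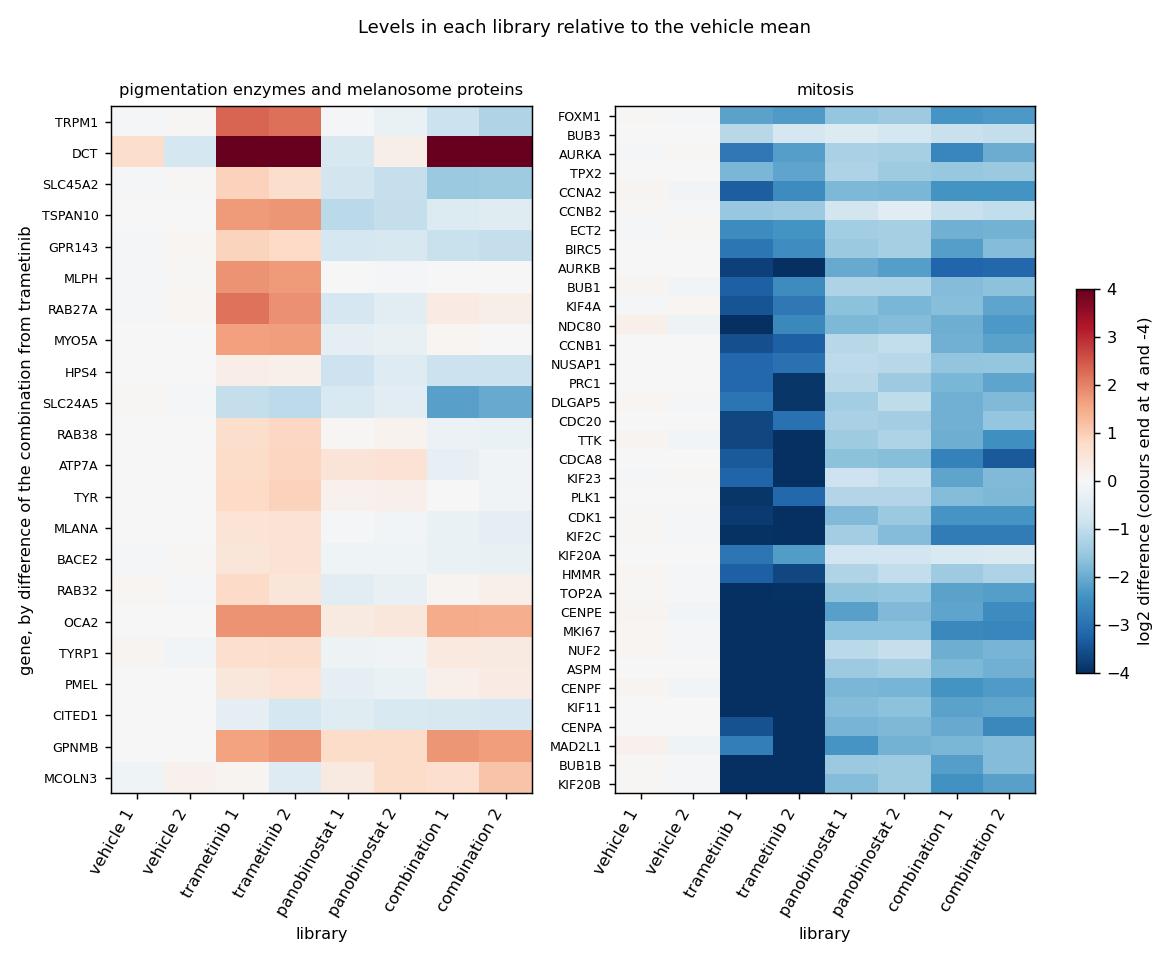
Colour gives the log2 difference of each library (columns) from the vehicle mean for 22 pigmentation genes (left) and 36 mitosis genes (right), on log2(normalised value + 1), red for higher and blue for lower. Pigmentation genes are reddest and mitosis genes bluest in the trametinib libraries, with the combination libraries nearer to vehicle in both panels.

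Most transcription factors of the melanocyte lineage rose, but the master factor did not pass. Of 13 tested lineage factors 10 rose and 1 fell, with a median of 0.78. MITF, the master regulator of pigment cells, was at 4158 and 4070.1 in vehicle and 4184 and 4336 in the combination and did not pass (log2 change 0.05 ± 0.05, adjusted p = 0.472). SOX10 rose to the levels given above (log2 change 0.92 ± 0.06, adjusted p = 2.69e-06). PAX3, which acts with SOX10, was at 1363 and 1324 in vehicle and 3210.1 and 3146 in the combination (log2 change 1.24 ± 0.07, adjusted p = 9.36e-07), and TFAP2A was at 13687 and 13580.0 in vehicle and 24212 and 22485 in the combination (log2 change 0.78 ± 0.05, adjusted p = 3.4e-06). IRF4 and TFEB, the latter a relative of MITF that drives lysosome genes, rose by 2.29 and 2.25 on the log2 scale, and MEF2C fell by 0.50. MITF was at 8362 and 8592 with trametinib, above both combination libraries (log2 difference -0.99 ± 0.05, adjusted p = 2.61e-06).

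Receptor tyrosine kinases changed selectively. Of 19 tested receptors 8 rose and 3 fell, with a median of 0.25. FGFR2, a fibroblast growth factor receptor, was at 53.6 and 52.3 in vehicle and 633 and 715 in the combination, 12.7-fold higher (log2 change 3.64 ± 0.19, adjusted p = 5.66e-07). ERBB3, a neuregulin receptor, was at 351 and 339 in vehicle and 1136 and 1216 in the combination (log2 change 1.77 ± 0.09, adjusted p = 6.53e-07). MET, the receptor for hepatocyte growth factor, was at 5559.9 and 5446 in vehicle and 1942 and 1783 in the combination, 2.95-fold lower (log2 change -1.56 ± 0.06, adjusted p = 1.53e-07). The groups were well apart in all 3. MET was at 9197 and 9695 with trametinib and 4737 and 4893 with panobinostat, above both combination libraries (log2 difference -2.34 ± 0.06, adjusted p = 5.03e-08 against trametinib, and log2 difference -1.37 ± 0.06, adjusted p = 9.23e-07 against panobinostat). FGFR2 was at 781 and 774 with trametinib and 45.9 and 41.3 with panobinostat. IGF1R, the receptor for insulin-like growth factor 1, was at 497 and 511 in vehicle and 759.8 and 691 in the combination (log2 change 0.52 ± 0.15, adjusted p = 0.0181), a call that ended without vehicle replicate 1 (adjusted p = 0.0938), vehicle replicate 2 (0.0755), combination replicate 1 (0.120) or combination replicate 2 (0.0555). ROR1, a receptor of the noncanonical WNT pathway, was at 103 and 117 in vehicle and 117 and 77.6 in the combination and did not pass, and ROR2 was too low to be tested. The count of 8 was 5 without vehicle replicate 1 or without combination replicate 2.

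Genes of the PI3K and FOXO branch mostly rose. Of 26 tested members 17 rose and 3 fell, with a median of 0.94. IRS2, the adaptor that links insulin receptors to PI3K, was at 1908 and 2019.6 in vehicle and 12100.0 and 12735 in the combination, 6.32-fold higher (log2 change 2.66 ± 0.07, adjusted p = 2.45e-08). PIK3R3, a regulatory subunit of PI3K, was at 156 and 132 in vehicle and 1316 and 1559 in the combination (log2 change 3.31 ± 0.14, adjusted p = 2.15e-07). SESN3, a sestrin induced by FOXO factors that restrains mTORC1, was at 247 and 246 in vehicle and 2107 and 2163 in the combination (log2 change 3.11 ± 0.10, adjusted p = 5.77e-08). KLHL24 was at 159 and 149.6 in vehicle and 1148 and 1153 in the combination. PIK3IP1, an inhibitor of PI3K, rose by 3.61 on the log2 scale, and FOXO1, FOXO3 and FOXO4 rose by 1.15, 1.5 and 2.26. AKT1, TSC2 and AKT2 were the members that fell. IRS2 was at 5329 and 4828 with trametinib and 3285 and 3265 with panobinostat, so both combination libraries exceeded every single-drug library (log2 difference 1.29 ± 0.07, adjusted p = 1.72e-06 against trametinib, and log2 difference 1.92 ± 0.07, adjusted p = 3.7e-07 against panobinostat).

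In the list of G alpha q signalling genes 4 of 21 tested members rose and 7 fell, beside 24.5% and 25.5% of all tested genes. The median was -0.13. The list also counts EIF1AX, described below, whose product is not a signalling protein. GNAQ, encoding the G alpha q subunit, was at 631 and 573 in vehicle and 509 and 535 in the combination and did not pass, whereas GNA11, encoding its relative, fell to 417 and 424 from 675 and 715 (log2 change -0.72 ± 0.17, adjusted p = 0.00551). PLCB3, a phospholipase C that G alpha q activates, and RAC1, a small GTPase, fell by 0.64 and 0.50 on the log2 scale. RGS2, which switches off G alpha q, was at 84.3 and 68.1 in vehicle and 294 and 283 in the combination, 3.79-fold higher (log2 change 1.91 ± 0.23, adjusted p = 0.000118). EIF1AX, a translation initiation factor mutated in some uveal melanomas, fell to 889 and 914 from 2528 and 2502 (log2 change -1.48 ± 0.09, adjusted p = 1.98e-06). BAP1, a deubiquitinase often lost in metastatic disease, was at 811 and 723 in vehicle and 603 and 636 in the combination and did not pass (adjusted p = 0.0734). It passed as lower in 6 other settings, among them DESeq2, array weights and leaving out either or both trametinib libraries (adjusted p from 0.00707 to 0.0398). Among 15 G protein coupled receptors and endothelin genes 5 rose and 2 fell. EDNRB, the endothelin receptor of melanocytes, was at 812 and 799 in vehicle and 1572 and 1494 in the combination (log2 change 0.93 ± 0.10, adjusted p = 4.7e-05), far below its level of 7236 and 8447 with trametinib (log2 difference -2.35 ± 0.10, adjusted p = 7.98e-07). GPR56, an adhesion receptor, was at 49.4 and 56.2 in vehicle and 361 and 462 in the combination (log2 change 2.93 ± 0.38, adjusted p = 0.000181).

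Hippo pathway effectors and their targets rose in 9 of 20 tested members and fell in 3, with a median of 0.28. YAP1, the coactivator itself, was at 1481 and 1414 in vehicle and 1248 and 1301 in the combination and did not pass (adjusted p = 0.083). It passed in 6 other settings, among them TMM scaling, array weights and leaving out either or both trametinib libraries (adjusted p from 0.0298 to 0.0414). CTGF and CYR61, matricellular targets of YAP1, were at 64.4 and 58.6 in vehicle and 289 and 240.4 in the combination (log2 change 2.08 ± 0.28, adjusted p = 0.000196) and at 634 and 646 in vehicle and 1132 and 1287 in the combination (log2 change 0.91 ± 0.13, adjusted p = 0.000338). Both targets were higher in each combination library than in each vehicle library. TEAD4, a DNA-binding partner of YAP1, fell to 107 and 122 from 459 and 369.7 (log2 change -1.85 ± 0.23, adjusted p = 0.000129). NT5E, the ecto-enzyme CD73, rose most in the list, by 4.68 on the log2 scale. CYR61 was at 388 and 327 with trametinib and 396 and 459 with panobinostat, below vehicle in all 4 libraries and below the combination (log2 difference 1.76 ± 0.13, adjusted p = 1.8e-05 against trametinib).

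Cell death genes moved in both directions. Of 14 pro-apoptotic BCL2 family genes 6 rose and 5 fell, with a median of 0.08. BCL2L11, the BH3-only protein BIM, which ERK restrains, was at 66.2 and 99.8 in vehicle and 336 and 432 in the combination, 4.63-fold higher (log2 change 2.21 ± 0.27, adjusted p = 0.000117). BNIP3L, a mitochondrial protein that also serves mitophagy, was at 666 and 626 in vehicle and 2040.5 and 1935 in the combination (log2 change 1.62 ± 0.10, adjusted p = 1.57e-06). BID, a BH3-only protein which links death receptors to mitochondria, was at 471 and 496 in vehicle and 111 and 119 in the combination (log2 change -2.06 ± 0.18, adjusted p = 1.44e-05). BIM was higher and BID lower in both combination libraries. BIK, a BH3-only gene with no vehicle read, was at 65.6 and 30.4, at least 22.96-fold above the floor of 3 reads (log2 change 5.52 ± 1.45, adjusted p = 0.0105), and its call ended without vehicle replicate 2 (adjusted p = 0.0504) or combination replicate 1 (adjusted p = 0.0930). BMF, described above, was at 1712 and 1663 with trametinib and 548 and 614 with panobinostat, and the combination exceeded both (log2 difference 0.99 ± 0.10, adjusted p = 7.53e-05 against trametinib, and log2 difference 2.52 ± 0.10, adjusted p = 4.55e-07 against panobinostat).

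Of 9 tested anti-apoptotic genes 3 rose and 2 fell, beside 24.5% and 25.5% of all tested genes. BCL2 itself was at 912 and 861 in vehicle and 321 and 459 in the combination, 2.27-fold lower (log2 change -1.21 ± 0.18, adjusted p = 0.000437). BIRC7, the melanoma inhibitor of apoptosis livin, fell by 4.17 on the log2 scale. CFLAR (log2 change 0.50 ± 0.09, adjusted p = 0.000885) and BIRC2 (log2 change 0.48 ± 0.10, adjusted p = 0.00338) rose. MCL1 was at 1643 and 1824 in vehicle and 1445 and 1448 in the combination and did not pass (adjusted p = 0.0709). It passed as lower in 7 other settings, among them TMM scaling, DESeq2, array weights and leaving out either or both trametinib libraries (adjusted p from 0.0037 to 0.0451). BCL2L1, encoding BCL-XL, was at 739.7 and 842 in vehicle and 1028 and 1162 in the combination (log2 change 0.47 ± 0.11, adjusted p = 0.00638), a call that ended without vehicle replicate 1 (adjusted p = 0.0685) or combination replicate 2 (adjusted p = 0.0655). BTG2, an antiproliferative gene, was at 245 and 216 in vehicle and 1030.2 and 1132 in the combination (log2 change 2.23 ± 0.13, adjusted p = 1.51e-06). GDF15, a secreted stress factor, was at 24.1 and 40.4 in vehicle and had no read in the combination, at least 7.98-fold lower, and its call ended without vehicle replicate 2 (adjusted p = 0.0888).

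Genes for histone deacetylases, which panobinostat inhibits, and for sirtuins, counted in the same list, changed unevenly. Of 18 histone deacetylases and sirtuins 8 rose and 3 fell, with a median of 0.35. HDAC1 was at 689.7 and 703 in vehicle and 834 and 730.2 in the combination and HDAC3 at 370.1 and 398 in vehicle and 363 and 332 in the combination, and neither passed. HDAC2 was at 976 and 1165 in vehicle and 649.7 and 767 in the combination (log2 change -0.59 ± 0.16, adjusted p = 0.0121), a call that ended without vehicle replicate 2 (adjusted p = 0.108) or combination replicate 1 (adjusted p = 0.110). HDAC9, a class IIa deacetylase, was at 1307 and 1222 in vehicle and 3019 and 2641 in the combination (log2 change 1.16 ± 0.10, adjusted p = 9.99e-06), and its level of 3100.1 and 3191 with panobinostat did not differ from the combination past the threshold. The count of 8 was 4 without vehicle replicate 2 and 5 without vehicle replicate 1 or either combination library. Of 16 acetyltransferases and BET readers 2 rose and 8 fell. KAT2A, the acetyltransferase GCN5, was at 589 and 629 in vehicle and 185 and 143 in the combination (log2 change -1.90 ± 0.22, adjusted p = 8.08e-05), and BRD2, a BET reader of acetylated histones, was at 5576 and 5741 in vehicle and 3696 and 4007 in the combination (log2 change -0.56 ± 0.06, adjusted p = 4.4e-05). The count of 8 falls was 5 without vehicle replicate 2 or combination replicate 2.

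In the polycomb and DNA methylation list 4 of 21 rose and 9 fell, with a median of -0.36. UHRF1, which brings the maintenance methyltransferase to replicating DNA, was at 1896 and 1845 in vehicle and 138 and 161 in the combination, 12.5-fold lower (log2 change -3.64 ± 0.14, adjusted p = 1.34e-07). DNMT1, that methyltransferase, was at 2926 and 3029 in vehicle and 668 and 633 in the combination (log2 change -2.19 ± 0.19, adjusted p = 1.23e-05). EZH2, the polycomb histone methyltransferase, fell by 0.93 on the log2 scale, and its paralogue EZH1 rose by 0.84. UHRF1 and DNMT1 were lower in both combination libraries than in either vehicle library.

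Neuronal genes had the highest median of the lists with at least 8 tested members. Of 27 tested synaptic and neuronal genes 16 rose and 4 fell, with a median of 2.21. CNTN1, a neuronal adhesion protein, was at 121 and 119 in vehicle and 1843 and 1836 in the combination, 15.3-fold higher (log2 change 3.93 ± 0.16, adjusted p = 1.94e-07). MAP2, a dendritic microtubule protein, was at 119 and 101.3 in vehicle and 1399 and 1375 in the combination (log2 change 3.65 ± 0.30, adjusted p = 9.94e-06), and L1CAM, an axonal adhesion protein, at 10.2 and 9.50 in vehicle and 310.2 and 256 in the combination (log2 change 4.70 ± 0.35, adjusted p = 5.56e-06). SLC17A7, which loads glutamate into synaptic vesicles, was at 6.02 and 1.58 in vehicle and 281 and 301 in the combination (log2 change 6.10 ± 0.51, adjusted p = 1.14e-05). Vehicle levels were low in both libraries and combination levels high in both. With panobinostat alone MAP2 was at 1387 and 1330.0 and L1CAM at 244 and 274, and neither differed from the combination past the threshold. CNTN1 at 821 and 841 did differ (log2 difference 1.15 ± 0.16, adjusted p = 0.000889). Against trametinib 14 of the 27 were higher and 2 lower, beside 17.6% and 15.2% of all tested genes. Against panobinostat 4 were higher and 3 lower, shares near the 10.9% and 13.1% of all tested genes. Of 8 neuron markers 6 were in the table and 2 were tested. The sum over the 6 went from 16.6 to 27.7 in vehicle to 440 to 469 in the combination. Most of the combination sum was SLC17A7, at 281 and 301, and the part of these markers in this result was not tested. REST, the repressor of neuronal genes, was at 785 and 837 in vehicle and 1066 and 943 in the combination and did not pass (adjusted p = 0.127). It passed as higher in 6 other settings, among them quantile normalisation, array weights and leaving out either or both trametinib libraries (adjusted p from 0.0077 to 0.0225).

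Axon guidance genes rose in 13 of 26 and fell in 4, with a median of 0.65. PLXNC1, a semaphorin receptor of melanocytes, was at 3452 and 3409 in vehicle and 6373 and 6672 in the combination (log2 change 0.93 ± 0.06, adjusted p = 1.84e-06), and PLXNA1, another semaphorin receptor, was at 3065 and 3180.2 in vehicle and 1254 and 1418 in the combination (log2 change -1.23 ± 0.08, adjusted p = 2.18e-06). PLXNC1 was higher and PLXNA1 lower in both combination libraries. PLXNC1 lay between its levels with the single drugs, 16308 and 15211 with trametinib and 1468 and 1495 with panobinostat. NRP1 rose by 3.0 on the log2 scale while its relative NRP2 fell to 1038 and 1024 from 2103 and 2059 (log2 change -1.01 ± 0.07, adjusted p = 2.93e-06).

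Antigen presentation genes of class I mostly rose. Of 19 tested class I and peptide loading genes 10 rose and 4 fell, with a median of 0.40. HLA-B was at 2907 and 2922 in vehicle and 5825 and 6053 in the combination (log2 change 1.03 ± 0.05, adjusted p = 6.33e-07) and HLA-C at 2643 and 2508 in vehicle and 6288 and 5825 in the combination (log2 change 1.23 ± 0.08, adjusted p = 2.71e-06). HLA genes resemble each other, so the share of reads given to each is uncertain. TAP2 and the immunoproteasome subunit PSMB10 fell, by 1.71 and 1.89 on the log2 scale. The 2 tested class II loading genes, HLA-DMA and HLA-DMB, passed as higher (adjusted p = 0.0149 and adjusted p = 0.0330). HLA-DMA lost its call without vehicle replicate 1 (0.0963) or combination replicate 1 (0.136). HLA-DMB lost it without any 1 of the vehicle, panobinostat or combination libraries, with adjusted p from 0.0632 to 0.173, and with a pseudocount of 0.5 (0.0653) or no filter on low values (0.0568). Of 20 interferon-stimulated genes 6 rose and 4 fell, shares near the 24.5% and 25.5% of all tested genes. The median was 0.44. IFI6, an interferon-induced mitochondrial protein, was at 190.2 and 194 in vehicle and 741 and 729 in the combination (log2 change 1.93 ± 0.12, adjusted p = 2.29e-06), and OAS3, an antiviral sensor of double-stranded RNA, was at 1260.3 and 1317 in vehicle and 458 and 423 in the combination (log2 change -1.55 ± 0.14, adjusted p = 1.58e-05).

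Matrix genes rose as well. The list of mesenchymal and matrix genes had 25 tested members, of which 13 rose and 2 fell, and its median was 0.58. FN1, encoding fibronectin, was at 693 and 762 in vehicle and 3881 and 4349 in the combination, 5.66-fold higher (log2 change 2.50 ± 0.09, adjusted p = 8.18e-08), and SPARC, a collagen-binding protein, was at 2622 and 2914 in vehicle and 8122 and 7939.6 in the combination (log2 change 1.54 ± 0.07, adjusted p = 2.36e-07). Of 8 fibroblast markers THY1 was at 0 in all 8 libraries, and the marker sum rose from 403 to 418 in vehicle to 1293 to 1325 in the combination, whose part in this result was not tested. Among 8 class 1 uveal melanoma markers, genes high in tumours of low metastatic risk, 4 rose and 1 fell. SATB1, a chromatin organiser, was at 209 and 207 in vehicle and 1072 and 1015 in the combination (log2 change 2.32 ± 0.11, adjusted p = 4.14e-07), and LMCD1, a LIM domain protein, fell by 2.78 on the log2 scale. Of 3 tested class 2 markers 1 rose, the RAB GTPase gene RAB31, at 602 and 716 in vehicle and 935 and 1038 in the combination (log2 change 0.58 ± 0.12, adjusted p = 0.00234).

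**Figure D4:**
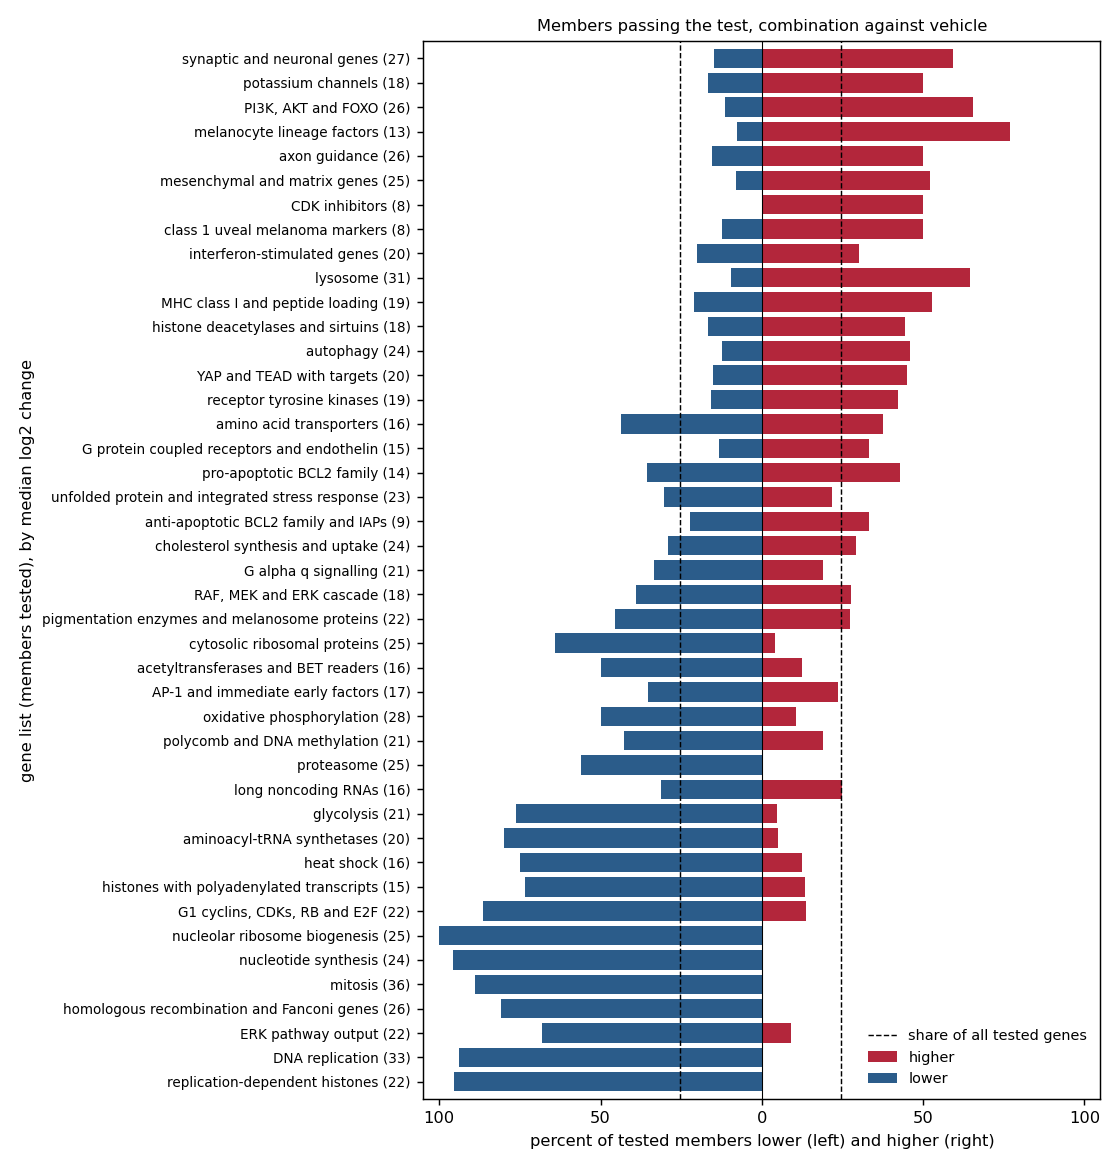
Bars give, for the gene lists plotted, all with at least 8 tested members, the percent of tested members that fell (blue, left) and rose (red, right) in the combination against vehicle, in order of the median log2 change. Dashed lines mark the shares of all tested genes, 25.5% lower and 24.5% higher, and the nucleolar list reaches 100% lower.

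Some genes lay outside the levels of all 3 other groups. Of 13320 tested genes, 419 were higher in the combination than in vehicle, trametinib and panobinostat by each test, or 3.15%, and 492 were lower, or 3.69%. The genes that follow were picked by these same tests and their values are a description. DIO2, the deiodinase that activates thyroid hormone, was at 42.7 and 51.5 in vehicle and 1767 and 1891 in the combination, 41.1 and 232 with trametinib and 49.95 and 52.4 with panobinostat. EPHA3, an ephrin receptor, was at 4.21 and 4.75 in vehicle and 398 and 383 in the combination, 10.03 and 0 with trametinib and 23.4 and 38.3 with panobinostat. CYP1B1, with vehicle and combination values given above, was at 155 and 317 with trametinib and 180.4 and 205 with panobinostat. In these genes both combination libraries were several times any other library. NTS, CDH18, a cadherin, and SFRP4, a secreted WNT antagonist, showed the same order, with combination levels of 461 and 424, 110.0 and 176 and 48 and 71.5.

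Among the genes below all other groups, DUSP2, a phosphatase of nuclear MAP kinases, was at 104 and 115 in vehicle and 3.51 and 4.56 in the combination, 42.1 and 37.2 with trametinib and 36.7 and 52.4 with panobinostat. STAT5A, a cytokine-activated transcription factor, was at 276 and 234 in vehicle and 63.2 and 48.7 in the combination, 245 and 149 with trametinib and 241 and 187 with panobinostat. LDB3, a PDZ and LIM domain protein of muscle Z discs, was at 35.5 and 31.7 in vehicle and 4.68 and 4.56 in the combination, 94.3 and 118 with trametinib and 37.7 and 36.3 with panobinostat. Both combination libraries were the lowest of the 8 in each. The small nucleolar RNA host gene SNHG12, the viral RNA sensor DDX58 and the protocadherin PCDHGC3 were the others, with combination levels of 14.05 and 45.6, 14.05 and 3.04 and 40.98 and 33.5.

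Not all of these calls held without every library or under each setting. Against vehicle, SFRP4 lost its call without any 1 vehicle or combination library, with adjusted p from 0.0574 to 0.105. DDX58 lost it without vehicle replicate 1 (adjusted p = 0.0709), vehicle replicate 2 (0.148) or combination replicate 2 (0.124), and under edgeR with the replicate block (0.0501). Against panobinostat, the calls of NTS and EPHA3 ended without any 1 panobinostat or combination library, with adjusted p from 0.0586 to 0.0904 and from 0.101 to 0.162. Those of CDH18 and SFRP4 against panobinostat ended without any 1 of the vehicle, panobinostat or combination libraries. With a pseudocount of 0.5 the panobinostat calls of EPHA3, CDH18 and SFRP4 ended too (adjusted p = 0.0593, 0.0672 and 0.0993), and that of SFRP4 also ended with the replicate block (0.0637) and with thinned reads (0.0580). SNHG12 and DDX58 lost theirs without panobinostat replicate 1 (adjusted p = 0.0606 and adjusted p = 0.0707). Against trametinib, CDH18 and DDX58 lost their calls without combination replicate 2 (adjusted p = 0.0599 and adjusted p = 0.0998), SNHG12 without combination replicate 1 (adjusted p = 0.0535), and SFRP4 without either combination library (adjusted p = 0.0838 and adjusted p = 0.116). In a fit of the trametinib and combination libraries alone, the calls of DUSP2 (adjusted p = 0.0773), SNHG12 (0.0852) and DDX58 (0.142) ended, and with array weights those of SFRP4 (0.0720) and DDX58 (0.0726). For DIO2, CYP1B1, LDB3, STAT5A and PCDHGC3, no setting run ended any of the 3 calls.

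**Figure D5:**
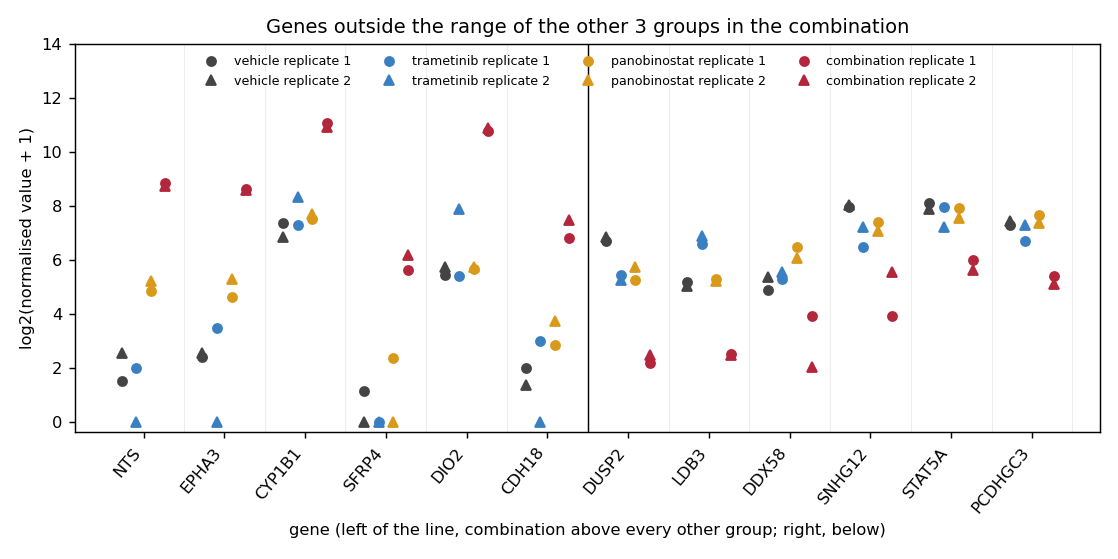
Points give log2(normalised value + 1), on the vertical axis, of each library for 6 genes above (left of the line) and 6 genes below (right) all other groups in the combination, with groups by colour and replicates by shape. The combination libraries, in red, sit above or below all other points for each gene.

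A few genes were silent in 1 of the 2 groups. Besides HECW2 and BIK, the highest combination levels among genes with no vehicle read were those of KIAA0319, a neuronal membrane protein, at 49.2 and 79.1, C5orf46, a small secreted peptide, at 65.6 and 34.99, and SHC3, a neuronal signalling adaptor, at 29.3 and 54.8. These were at least 30.7-fold, 24.1-fold and 20.1-fold above the floor of 3 reads. Besides GJB1 and GDF15, genes with no combination read included EFCAB11, CCL2, a chemokine that attracts monocytes, and CPB2, a carboxypeptidase. Their vehicle levels were 31.3 and 34.04, 21.7 and 19.8 and 16.9 and 19, at least 8.09-fold, 5.13-fold and 4.44-fold above that floor. CCL2 lost its call without vehicle replicate 1 (adjusted p = 0.116) or vehicle replicate 2 (adjusted p = 0.108). CPB2 lost it without any 1 of the vehicle, panobinostat or combination libraries, with adjusted p from 0.0782 to 0.171.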

How the data were processed

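RNA of 92.1 cells was sequenced in 8 libraries, 2 each with vehicle, trametinib, panobinostat or both. The deposited signal values are counts that the authors divided by a size factor per library. The submitters' processing notes name TopHat2 2.0.13, Cufflinks 2.2.1 and DESeq2, and list build hs37d5 with the trametinib and vehicle libraries. Use of strand, the annotation and a build for the other libraries are not given in the sources used here, so reads of overlapping genes may be split wrongly. Dividing by the smallest step gave whole reads for 100% of values (tolerance 1e-06), with 1 read worth 0.602 to 1.52.

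Of 18406 genes, 458 were at 0 in all libraries, and 13320 with a mean of at least 10 were tested by limma 3.58.1 (R 4.3.3) with an intensity trend on log2(value + 1). One fit held all 8 libraries and 4 groups, with 4 residual and 5.32 prior degrees of freedom. Benjamini-Hochberg adjustment ran over all tested genes, and a gene passed under 0.05. The script was tested on simulated data. Alternatives included edgeR 4.0.16 and DESeq2 1.42.0 on the recovered reads, other pseudocounts, filters and scalings, thinned reads, array weights, a replicate block, fewer groups and leaving out each library. The fold against a group at 0 uses a floor of 3 reads per library, which covers counting error only. Such reads are not independent molecules.

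The members and gene lists were chosen with earlier results of these data known. The lists held 1078 entries, 57 of them not matched in the table. Named genes were the 12 largest rises and falls among genes without overlap that averaged 50 or more in the higher group, the 5 largest of each that averaged 2000 or more, up to 4 members per list by smallest adjusted p, up to 6 genes above and 6 below all other groups, up to 5 at 0 in each group, and a set of drug targets and pathway genes whatever their result. Symbols of clones, small RNAs, antisense RNAs, unnamed loci and ribosomal proteins did not enter the rankings. Where the text gives the extreme members of a list or a log2 change without library values, those genes were added after their values were seen. Promoters were matched by symbol to RefSeq windows of GRCh38.p14, and motif counts cover the windows found. A few of the genes this rule names are not reported here.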

Additional observations from a re-analysis of the deposited data

How the results depend on the processing

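The counts of genes higher and lower than vehicle stayed within 1.5 times the main 3259 and 3403 under every alternative run. Leaving out 1 library gave 2275 to 4484 higher and 2425 to 4461 lower, and 1331 to 2198 and 1359 to 1833 at least 2-fold. Against trametinib it gave 1243 to 4238 higher and 1240 to 3145 lower, and against panobinostat 714 to 2758 and 929 to 2989. Fitting only the libraries compared gave 1148 higher and 1108 lower than trametinib (main 2343 and 2020), and 2602 and 2741 for panobinostat (main 1451 and 1740). Without the trametinib libraries the panobinostat counts were 2730 and 3018. Array weights gave 1152 lower than trametinib, and 2371 higher and 2701 lower than panobinostat. The trametinib libraries have the widest spread, which the common fit shares with all groups. Same-numbered replicates did not deviate together (correlations -0.023 to 0.022), and a fit with the replicate block gave 3181 higher and 3360 lower than vehicle, 2290 and 1939 for trametinib, and 1368 and 1659 for panobinostat. The replicate block was also run in edgeR, chosen after seeing the data, with 3088 and 3438 against vehicle. Of the named genes, PMEL reversed, from 0.26 to -0.018 under quantile normalisation, and the cause was not tested. Over all named genes and settings, 6468 results kept direction and side of the threshold, 90 lost and 28 gained a call. TMM scaling shifted the median of all genes by -0.04 and quantile normalisation by -0.02. With 6897784 reads in the smallest library and 2 libraries per group, genes under a mean of 10 were tested only in the run without a filter, which gave 3278 higher and 3322 lower than vehicle.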

Other observations

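Potassium channel genes rose in 9 of 18 tested members and fell in 3, with a median log2 change of 1.42 against 0.03 over all tested genes. KCNJ13, an inward rectifier of pigment epithelium, was at 0 and 2.38 in vehicle and 110.0 and 113 in the combination (log2 change 5.93 ± 0.88, adjusted p = 0.000401), and at 296 and 237 with trametinib and 3.06 and 0 with panobinostat. KCNS3, a modulatory subunit of voltage-gated channels, was at 154 and 148 in vehicle and 1051 and 1036 in the combination, 6.91-fold higher (log2 change 2.78 ± 0.12, adjusted p = 2.24e-07). KCNQ5, a voltage-gated channel, was at 1174 and 1156 in vehicle and 499 and 513 in the combination (log2 change -1.20 ± 0.08, adjusted p = 3.02e-06), below its levels of 1278 and 1322 and 1036 and 1044 with the single drugs. KCNJ13 and KCNS3 were higher and KCNQ5 lower in both combination libraries. Of 16 amino acid transporters 6 rose and 7 fell. SLC1A5, the main glutamine importer of many tumours, was at 1812 and 1851 in vehicle and 189.7 and 234 in the combination, 8.64-fold lower (log2 change -3.11 ± 0.18, adjusted p = 1.2e-06), and SLC7A1, an arginine importer, was at 2619.8 and 2535 in vehicle and 645 and 682 in the combination (log2 change -1.96 ± 0.11, adjusted p = 9.22e-07). SLC38A2, an amino acid transporter induced by starvation, went the other way, at 1251 and 1188 in vehicle and 2833 and 2889 in the combination (log2 change 1.23 ± 0.09, adjusted p = 4.15e-06).

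Of 16 long noncoding RNAs 4 rose and 5 fell, shares near those of all tested genes, with a median of -0.50. MALAT1, a nuclear speckle RNA, was at 425480.0 and 429230.0 in vehicle and 1251500.0 and 1279100.0 in the combination, 2.96-fold higher (log2 change 1.57 ± 0.07, adjusted p = 3.12e-07). It had the most reads in every library, and quantile normalisation gives the top gene of each library the same value. That setting ended the call but cannot show a change in MALAT1. NEAT1, the scaffold of paraspeckles, was at 4956 and 5634 in vehicle and 24990.0 and 26370.0 in the combination, 4.85-fold higher (log2 change 2.28 ± 0.08, adjusted p = 7.31e-08). SNHG1, a small nucleolar RNA host gene, was at 988 and 1032 in vehicle and 286 and 275 in the combination, 3.60-fold lower (log2 change -1.84 ± 0.11, adjusted p = 1.72e-06). NEAT1 was at 8828 and 7826 with trametinib and 15097 and 14947 with panobinostat, so each combination library exceeded all single-drug libraries. SSX1, the only tested cancer-testis gene, was at 307 and 250.2 in vehicle and 382 and 441 in the combination (log2 change 0.56 ± 0.20, adjusted p = 0.0388), and that call ended when any 1 vehicle, panobinostat or combination library was left out, with adjusted p from 0.0575 to 0.237, and with TMM scaling, thinned reads or no filter on low values (0.0536 to 0.0672). Of 2 tested metallothioneins, MT1X and MT2A, neither passed.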
